A study of Mus musculus with 12 samples.

Results

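The cadherin and protocadherin genes were described in whole lungs of *miR-30a*-/- mice by exposure and sex. Members were all genes annotated as protein-coding in the deposited count table whose symbol begins with *Cdh* and a digit or with *Pcdh*. There were 92 of them among 55487 genes, 23 *Cdh* genes and 69 *Pcdh* genes, with 91 distinct symbols because 2 gene identifiers both carry the name *Pcdha11*. One further matching symbol was not annotated as protein-coding and was left out.

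RNA-Seq was available for 12 lungs, 3 for each sex in each of 2 exposures. All mice were C57BL/6J and carried the same CRISPR/Cas9 deletion of the *miR-30a* gene, in the controls as well as in the exposed animals, and wild-type lungs were not analysed here. Exposed pups breathed oxygen at an FiO2 of 95% from postnatal day (PND) 1 to PND 5, control pups stayed in room air, and lungs were taken on PND 21. Litters were mixed before pups were allotted to an exposure. Each library is the whole lung of 1 animal, so fewer cells of a type and less RNA per cell cannot be told apart in any value below. The microRNA that all these mice lack, miR-30a-5p, is shown in its RefSeq (GRCm38.p6) mature form with the seed, bases 2 to 8, in capitals, beside 2 relatives with the same seed that were not targeted.

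mmu-miR-30a-5p: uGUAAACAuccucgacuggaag
mmu-miR-30c-5p: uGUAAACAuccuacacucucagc
mmu-miR-30e-5p: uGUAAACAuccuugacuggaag

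Cadherins are membrane proteins that hold cells together through calcium-dependent contacts. Classical cadherins bind like molecules on the next cell and are tied to actin by catenins. In the lung, E-cadherin (*Cdh1*) joins epithelial cells and VE-cadherin (*Cdh5*) joins endothelial cells. Protocadherins are a larger, mostly weakly adhesive group. Many of them lie in the α, β and γ clusters, in which variable first exons are chosen cell by cell and, for α and γ, spliced to shared constant exons, and these are known chiefly for giving neurons their identity.

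Depth ran from 8763033 to 16741694 counts per lung. The kit is named differently in the labels and in the study's methods, as a stranded kit in both. All libraries contained reads on genes that lung is not known to use, and this background was measured as the median counts per kilobase of exon over 1492 protein-coding olfactory and vomeronasal receptor genes. Receptor genes took 0.556% ± 0.168 of all counts in room air females, 0.767% ± 0.0901 in hyperoxia-exposed females, 0.771% ± 0.129 in room air males and 0.729% ± 0.215 in hyperoxia-exposed males (SD, n = 3 each). Their share was lowest in room air female 5, at 0.410%, and highest in hyperoxia-exposed male 2, at 0.947%. Skeletal muscle markers summed to 1724 CPM (read counts scaled to library size after upper-quartile normalization) in room air male 1 and to 93.3 to 130.2 CPM in the other 11 lungs. All 12 endothelial, 12 epithelial and 12 mesenchymal markers of lung were over the background limit described next.

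A member was taken as lung-expressed when its counts were more than 2 times those expected from the background on its exon length, as the median of the 12 lungs. This held for 41 of the 92 members. The same limit was passed by 3.22% of the receptor genes themselves, whose median ratio was 0.997. All 5 type I classical cadherins and all 5 *Cdh* genes outside the classical types (*Cdh13*, *Cdh16*, *Cdh17*, *Cdh23* and *Cdh26*) were lung-expressed, as were 5 of 13 type II classical cadherins. Of the protocadherins, 4 of 12 outside the clusters, 0 of 14 α, 8 of 22 β and 14 of 21 γ genes passed. The 51 members at the background level held 17.2% of all counts on members. The members nearest the limit were *Pcdhb10* at a ratio of 2.14 and *Cdh6* at 2.02 on one side, and *Cdh20* at 1.99 and *Pcdhb5* at 1.96 on the other.

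**Figure D1:**
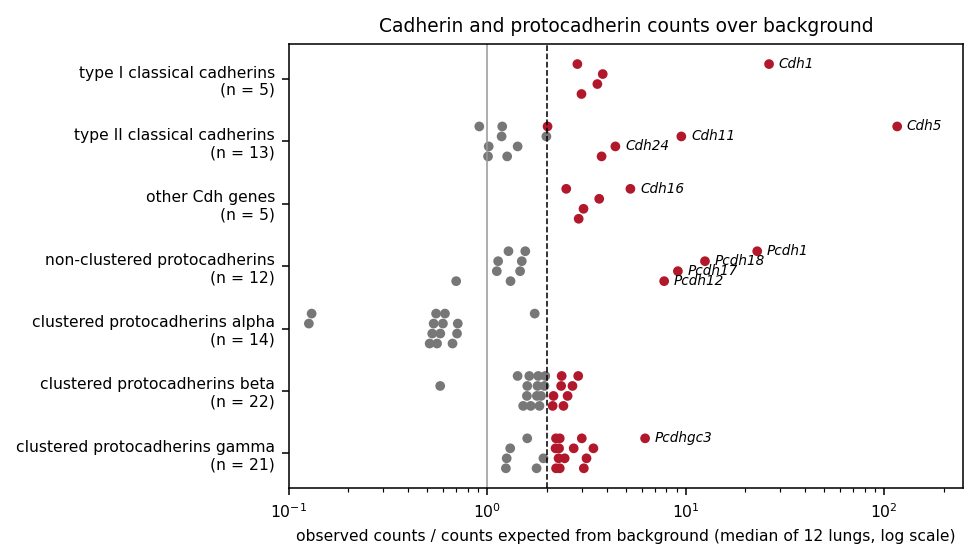
Each point is 1 gene, placed by its counts over those expected from background (median of 12 lungs, log scale), in 7 classes. Red points lie beyond the dashed limit of 2, the solid grey line marks a ratio of 1, and *Pcdhga10*, with a ratio of 0, is not drawn. *Cdh5* stands farthest out at a ratio of 116, followed by *Cdh1* at 26.3 and *Pcdh1* at 22.9.

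*Cdh5*, the cadherin of endothelial junctions, had the highest level of all members (ENSMUSG00000031871, chromosome 8 from 104101625 to 104144511, mm10). Levels of different genes were compared as CPM per kilobase of exon after subtraction of background. On that scale *Cdh5* stood at 144 ± 35.0 (SD, n = 12), which was 4.11 times the level of *Cdh1*, and it alone held 24.05% of the counts on members. In room air females *Cdh5* was at 785, 833 and 554 CPM, and in hyperoxia-exposed females at 627, 478 and 501 CPM. In room air males it was at 440, 744 and 623 CPM, and in hyperoxia-exposed males at 764, 384 and 592 CPM. All 4 groups overlapped, and the hyperoxia-exposed males alone spanned from 384 to 764 CPM, a range that holds the mean of every group.

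*Cdh1* (ENSMUSG00000000303, chromosome 8 from 106603351 to 106670246) came next, at 35.1 ± 10.05 CPM per kilobase (SD, n = 12). Its CPM were 225, 260 and 153 in room air females and 146, 143 and 134 in hyperoxia-exposed females, so that these groups did not overlap. In males they were 135, 196 and 144 in room air and 202, 105 and 146 after hyperoxia, and there the groups overlapped. *Pcdh1*, a protocadherin of airway epithelium (ENSMUSG00000051375, chromosome 18 from 38185914 to 38212053), followed at 27.02 ± 7.10 CPM per kilobase. It had 342, 334 and 245 CPM in room air females, 270, 190 and 204 CPM in hyperoxia-exposed females, 171, 276 and 256 CPM in room air males and 293, 153 and 246 CPM in hyperoxia-exposed males. The groups of either sex overlapped.

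**Figure D2:**
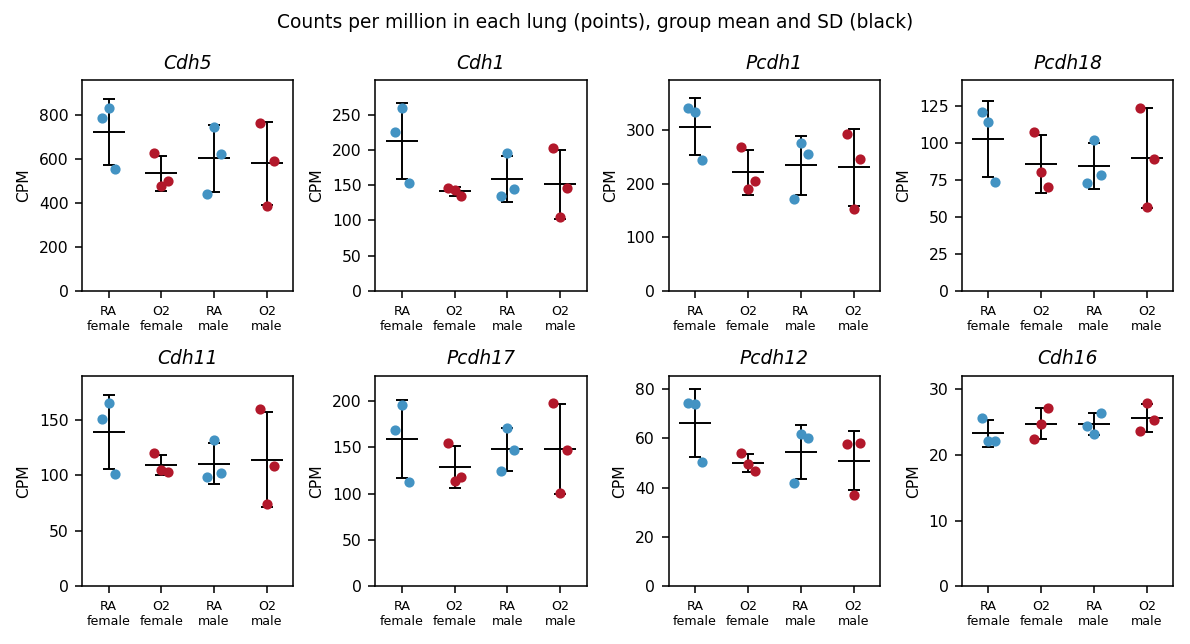
CPM (vertical axis, from 0) in each of the 3 lungs per group for 8 members, with room air (RA) in blue and hyperoxia (O2) in red and the group mean and SD in black. *Cdh5* runs from 833 CPM in a room air female to 384 CPM in a hyperoxia-exposed male, whereas *Cdh16* keeps between 22.1 and 27.9 CPM.

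Next by level were *Pcdh18* at 15.7 ± 4.39, *Cdh11* (a cadherin of mesenchymal cells) at 12.1 ± 3.37, *Pcdh17* at 10.05 ± 2.77, *Pcdh12* (VE-cadherin-2, of endothelium) at 7.95 ± 2.13 and the γ gene *Pcdhgc3* at 7.24 ± 2.27 CPM per kilobase (SD, n = 12). *Cdh16*, a cadherin of kidney and thyroid epithelium, stood at 5.28 ± 0.437 CPM per kilobase. It was followed by *Cdh24* at 4.01 ± 0.661, *Cdh23* (of hair cell tip links) at 3.23 ± 0.251 and *Cdh15* (M-cadherin, of muscle) at 3.22 ± 0.381. The last 2 of these levels differ by less than their spread over lungs. *Cdh15* had 13.6 CPM in the lung with the high muscle markers, inside the range of 10.8 to 16.7 CPM over the 12 lungs.

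Over the 41 lung-expressed members, the highest lung had 1.26 to 2.59 times the CPM of the lowest (median 1.67), and 13 members exceeded 2 times. These 13 included *Cdh1*, *Pcdh1* and *Cdh5* at high level and γ genes at low level, with *Pcdhga8* the highest of them. Of these 41, 18 were highest in room air female 2 or 5, the room air females of lowest receptor share at 0.517% and 0.410%, and 16 were lowest in hyperoxia-exposed male 2, of highest share. Of the 51 members at background, 24 were lowest and 6 highest in room air female 2 or 5, and of the lung-expressed members 7 were lowest there. *Cdh5* varied 2.17-fold over the lungs. The median relative level of 12 endothelial markers varied 2.25-fold, and *Cdh5* divided by that median varied 1.19-fold. *Cdh1* varied 2.47-fold, and 1.22-fold when divided by the median relative level of 12 epithelial markers. The ratio of *Cdh5* to its markers was 1.02 ± 0.0537 in the 6 room air lungs and 0.987 ± 0.0414 in the 6 hyperoxia-exposed lungs, and that of *Cdh1* was 1.04 ± 0.0612 and 0.966 ± 0.0550. The CPM of *Cdh16* varied 1.26-fold and its ratio to the epithelial markers 2.66-fold.

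*Pcdh17* and *Pcdh18* were the members of highest level for which a RefSeq promoter was at hand, and *Pcdh19* is the member with the smallest p in the sex comparison. Their promoters are printed as the sequence context of these members. Each runs from 250 bases before to 50 bases after the annotated start, on the strand of the gene, in GRCm38.p6. Capitals mark the CCAAT box, searched as CCAAT or its complement ATTGG, a motif chosen after these sequences had been read. The *Pcdh17* window lies at chr14:84443313-84443612 on the plus strand, that of *Pcdh18* at chr3:49757267-49757566 on the minus strand and that of *Pcdh19* at chrX:133688944-133689243 on the minus strand.

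Pcdh17: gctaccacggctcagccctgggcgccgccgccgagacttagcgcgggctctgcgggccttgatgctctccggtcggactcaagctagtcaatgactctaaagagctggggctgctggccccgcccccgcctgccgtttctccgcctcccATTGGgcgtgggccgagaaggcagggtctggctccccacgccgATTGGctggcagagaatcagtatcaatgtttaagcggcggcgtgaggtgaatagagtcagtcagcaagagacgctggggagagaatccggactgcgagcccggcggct
Pcdh18: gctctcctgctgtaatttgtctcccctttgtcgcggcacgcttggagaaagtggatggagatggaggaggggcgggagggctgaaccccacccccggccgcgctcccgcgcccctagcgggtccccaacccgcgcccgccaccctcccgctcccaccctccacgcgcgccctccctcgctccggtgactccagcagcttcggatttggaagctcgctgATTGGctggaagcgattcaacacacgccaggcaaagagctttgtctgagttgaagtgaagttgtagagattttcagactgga
Pcdh19: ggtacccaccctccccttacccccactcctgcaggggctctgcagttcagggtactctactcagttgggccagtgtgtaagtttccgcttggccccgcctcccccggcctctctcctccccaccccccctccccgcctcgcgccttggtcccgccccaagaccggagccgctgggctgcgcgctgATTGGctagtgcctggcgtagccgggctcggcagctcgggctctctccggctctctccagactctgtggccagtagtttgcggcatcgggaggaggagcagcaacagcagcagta

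*Pcdh17* held 2 such boxes and the other promoters 1 each, all before the start. The windows were 65.0%, 63.0% and 67.7% G and C and held 26, 23 and 18 CpG. Of the 25 promoters listed for 22 member genes, 17 held the motif (68.0%), against 37.4% of all 32851 promoters of that length. Counted by gene, 15 of the 22 held it. The 17 include the promoters printed above, which were read before the motif was chosen, so the share is no test. The E-box CACCTG, read by the Snail and Zeb repressors of *Cdh1*, was in 5 of the 25 and in 20.2% of all promoters. A match is a run of letters in this window and says nothing of binding.

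The 7 bases that pair with the miR-30 seed, TGTTTAC, were searched on the sense strand in the longest annotated 3′ UTR of each gene (GENCODE M21). They were present in 10 of 92 members (10.9%) and in 13.8% of 21010 protein-coding genes, whose median UTR was shorter, 960 bases against 1744. Outside the clusters 7 of 35 members held a match, a larger share than among all genes. In the clusters 3 of 57 did, a smaller share. Among the 19 lung-expressed members outside the clusters, *Pcdh17* was the 1 gene with a match, and it had 2 of them. They begin 389 and 1026 bases into a 3′ UTR of 5445 bases on chromosome 14, and are shown with 10 bases on either side.

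Pcdh17 site 1: ctgacttaacTGTTTACctataaaccc
Pcdh17 site 2: agattcaatgTGTTTACatcaaatgac

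*Pcdh17* had 169, 195 and 113 CPM in room air females, 155, 114 and 118 CPM in hyperoxia-exposed females, 125, 171 and 148 CPM in room air males and 198, 100 and 148 CPM in hyperoxia-exposed males. All 12 lungs lack the microRNA, so its effect on *Pcdh17* cannot be read from these values.

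The 57 clustered protocadherins lie side by side on chromosome 18 from 36930184 to 37841873. They held 23.7% of the counts on members, 2.14% on α, 8.30% on β and 13.2% on γ genes. The 14 α genes had a median ratio of 0.571 and the γ genes a median of 2.29. These ratios depend on the counting. Every α and γ gene shares exon bases with its neighbours, and reads on shared bases are not assigned to a gene by the counter's default. On the exon bases that no other gene overlaps, the median ratio was 1.40 for α and 4.37 for γ. There 1 of 14 α genes and all 20 γ genes that have such bases exceeded 2. The 22 β genes, of which 3 share exon bases, had a median of 1.85 by either length. *Pcdhga10* had 1 count over all lungs. It has 2613 exon bases free of other genes on its own strand but 0 free on both, and so no ratio on such bases. Whether the counting used strand is not given in the sources used here, so reads of γ genes and of genes antisense to them cannot be told apart.

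Within the γ cluster the C-type gene *Pcdhgc3*, the isoform known to be used outside neurons, had 59.8, 65.1 and 40.05 CPM in room air females and 48.9, 34.9 and 38.5 CPM in hyperoxia-exposed females. In males it had 39.7, 52.9 and 41.4 CPM in room air and 60.8, 30.8 and 44.1 CPM after hyperoxia. The other lung-expressed γ genes had mean levels of 1.56 to 3.06 CPM per kilobase, against 7.24 for *Pcdhgc3*. These levels divide by the whole exon length. On exon bases shared with no other gene *Pcdhgc3* stood at 18.9 times background, beyond *Pcdh18* at 12.5, and the others at 3.58 to 5.92 times. The transcripts of γ genes had a median of 53.1% G and C, those of α genes 47.3%, of β genes 46.0% and of the receptor genes 39.0%; the part of base composition in the ratios was not tested.

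The first comparison asked which members differed on PND 21 after neonatal hyperoxia, over both sexes. Of the 91 members that passed the expression filter, edgeR's quasi-likelihood test called 0, where a call needs an adjusted p (Benjamini-Hochberg) below 0.05 together with a change of more than 1.5-fold, and DESeq2 also called 0. Over all 45828 genes tested 19 were called, or 0.0415%. The smallest adjusted p of a member was 0.868 (edgeR). At an unadjusted p under 0.05 there were 6 members, 6.59%, against 5.2% of all genes. The median log2 fold change was -0.08 over the 41 lung-expressed members, of which 27 were lower, and 0.07 over the 50 tested members at background, of which 18 were lower. Single lungs moved both medians. The first was -0.03 without hyperoxia-exposed male 2, -0.04 without room air female 2 or 5 and -0.18 without room air female 6. The second was 0.04 without hyperoxia-exposed female 5 and 0.11 without hyperoxia-exposed female 2. With the receptor share as covariate the medians were -0.009 (22 of 41 lower) and 0.0096, and with background subtracted the second was -0.04 (18 of 34 lower). Over all genes tested the median was 0.03, with 44.0% lower. Over all protein-coding genes beyond the background limit it was -0.05, with 63.2% lower.

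The log2 fold changes of lung-expressed members ran from -0.37 to 0.20. The 95% interval lay within a 1.5-fold change either way for 36 of the 41. The 5 whose interval went beyond it, all on the lower side, were *Cdh1*, *Cdh5*, *Pcdh1*, *Pcdhga8* and *Pcdhgb6*. *Cdh5* had 558 ± 133 CPM after hyperoxia and 663 ± 151 CPM in room air (SD, n = 6 each), a log2 fold change of -0.24 ± 0.22 (SE, edgeR adjusted p = 0.927, interval -0.70 to 0.21). *Cdh1* had 146 ± 31.5 and 186 ± 49.9 CPM, a log2 fold change of -0.33 ± 0.18 (adjusted p = 0.927, interval -0.70 to 0.04).

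**Figure D3:**
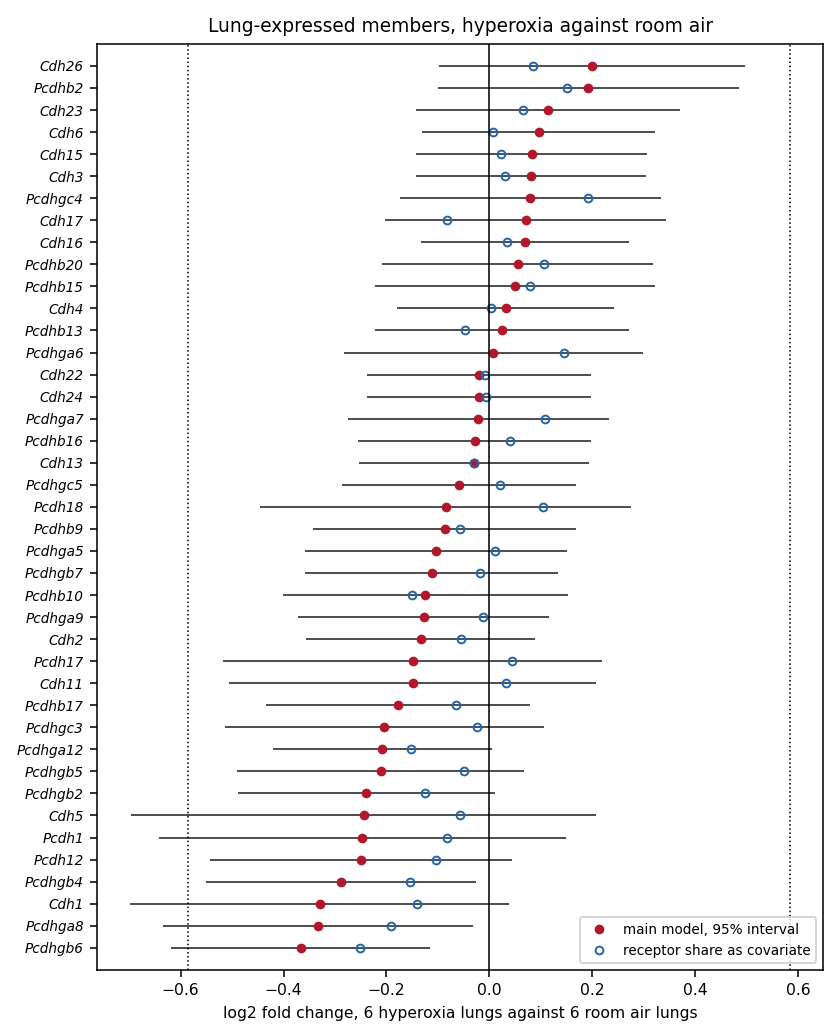
Log2 fold change of hyperoxia against room air (6 lungs each, horizontal axis) for the 41 lung-expressed members in rows, with 95% intervals as lines; the dotted lines mark a 1.5-fold change. Open blue circles give the model with the log2 receptor share as a covariate, which moves *Cdh5* from -0.24 to -0.06 and *Cdh1* from -0.33 to -0.14.

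The 6 lung-expressed members with the smallest unadjusted p were all lower after hyperoxia, *Cdh1* among them, and the others were γ genes. *Pcdhgb6* had 11.97, 15.5 and 20.2 CPM as the lowest, median and highest of the 6 hyperoxia-exposed lungs and 16.02, 20.5 and 25.3 CPM in room air, groups that overlap. Its log2 fold change was -0.37 ± 0.12 (SE), with an unadjusted p of 0.0059 and an adjusted p of 0.868 (edgeR). *Pcdhga8* followed at -0.33 ± 0.15, *Pcdhgb4* at -0.29 ± 0.13, *Pcdhga12* at -0.21 ± 0.10 and *Pcdhgb2* at -0.24 ± 0.12, each with an adjusted p of 0.927. Of the 20 γ genes tested, 18 were lower (median -0.17). When the receptor share entered the model as a covariate 14 were lower (median -0.07), with background subtracted 19 were lower (median -0.34), and without hyperoxia-exposed male 2 the median was -0.095 (16 lower). These genes share exons and cluster, so they are not separate observations. The 22 β genes had a median of -0.01, with 13 lower.

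Among the other members of high level, *Pcdh12* had 50.5 ± 7.94 CPM after hyperoxia and 60.4 ± 12.8 CPM in room air (log2 fold change -0.25 ± 0.14). The log2 fold change was -0.15 for both *Pcdh17* and *Cdh11* (SE 0.18 and 0.17) and -0.08 ± 0.18 for *Pcdh18*. *Cdh16*, *Cdh23*, *Cdh15* and *Cdh3* (P-cadherin) had log2 fold changes of 0.07, 0.11, 0.08 and 0.08, each smaller than its standard error. None of these passed the test.

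In females the spread of members was wider. Again 0 of 91 members were called by edgeR, and 0 by DESeq2, against 1 of all genes tested (0.00218%), with a smallest adjusted p of 0.309. That count of all genes was 0 to 206 when 1 lung was left out, and highest without room air female 6. At an unadjusted p under 0.05 there were 17 members, 18.7%, against 12.6% of all genes. Of the 41 lung-expressed members 30 were lower after hyperoxia (median log2 fold change -0.23), beside 66.2% of all protein-coding genes beyond the background limit (median -0.14). Of the 50 members at background 35 were higher (median 0.26), beside 96.1% of the receptor genes (median 0.45). The receptor median was 0.29 without room air female 5. The lung-expressed median was -0.12 without room air female 2 and -0.13 without room air female 5, and the background median was 0.14 without room air female 5 and -0.39 with background subtracted (22 of 34 lower). The 95% interval lay within a 1.5-fold change for 18 of the 41 lung-expressed members, and 2 estimates lay beyond it. When the log2 receptor share entered the model, these 2 medians became -0.001 and 0.008, and 21 of the 41 were lower. Over all genes tested 39.0% were lower in females.

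*Pcdhga8* had 17.9, 20.3 and 14.3 CPM in room air females and 12.3, 10.6 and 11.3 CPM in hyperoxia-exposed females, and these groups did not overlap. Its log2 fold change was -0.62 ± 0.21 (SE, edgeR adjusted p = 0.339), and -0.18 with the covariate. *Pcdhga12* had 22.9, 23.7 and 19.4 CPM in room air and 19.4, 14.9 and 15.2 CPM after hyperoxia (log2 fold change -0.41 ± 0.15, edgeR adjusted p = 0.352), and these groups did not overlap, by less than the last digit shown. The value was -0.48 ± 0.17 for *Pcdhgb6* and -0.47 ± 0.18 for *Pcdhgb4*. All 20 γ genes tested were lower in females, with a median of -0.32, but with the covariate 13 were lower and the median was -0.05. With background subtracted 20 were lower and the median was -0.59, and without room air female 5 it was -0.20 (19 lower). *Cdh1* was at 141 ± 6.08 CPM after hyperoxia and 213 ± 54.2 CPM in room air (SD, n = 3 each), a log2 fold change of -0.59 ± 0.25 (adjusted p = 0.371), which became -0.07 with the covariate. For *Cdh5* it was -0.43 ± 0.31, and 0.08 with the covariate.

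Of the lung-expressed members 11 were higher in females, up to *Pcdhb2* at 0.36 ± 0.20, with 0 past the test. All 8 type II cadherins at background were higher (median 0.55), among them *Cdh7*, *Cdh10* and *Cdh19*, genes of neural tissue and glia, and so were 13 of 14 α genes (median 0.39). Of the receptor genes 96.1% were higher in females (median 0.45). With the covariate 6 of the 8 cadherins and 11 of the 14 α genes were higher, with medians of 0.04 and 0.25. *Cdh7*, whose counts were 1.02 times the expected background, had 8.83 ± 1.16 CPM in room air and 14.3 ± 3.17 CPM after hyperoxia, a log2 fold change of 0.69 ± 0.20 (edgeR adjusted p = 0.309) and of 0.29 with the covariate. Groups did not overlap for 20 of the 91 members in females, against 17.2% of all genes tested. A pair of alternatives called members here, RUVr with 1 factor 7 members (4.15% of all genes) and the fit with the animal number as a block 2, *Cdh7* and *Cdh10* (1.04% of all genes). Of the 7, 6 were at background, and the lung-expressed 1 was *Pcdhga8*, at -0.60 (adjusted p = 0.000539). Among the 6 was the γ gene *Pcdhga11*, also at -0.60 (adjusted p = 0.00799, edgeR with RUVr). On exon bases that no other gene overlaps, *Pcdhga11* too exceeded 2 times background.

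In males 0 of 91 members were called by either tool, as were 0 of all genes tested by edgeR (0%), and 0 members had an unadjusted p under 0.05, against 2.7% of all genes. The lung-expressed members had log2 fold changes between -0.25 and 0.24 with a median of -0.001, and 22 of 41 were lower, against 52.0% of all genes and 42.1% of the protein-coding genes beyond the background limit. Of the 50 members at background 32 were lower (median -0.05), a median that was 0.02 without hyperoxia-exposed male 1, 0.01 without room air male 1, -0.08 without room air male 4 and -0.14 without hyperoxia-exposed male 2. Of the 41 lung-expressed members, 12 were lower without hyperoxia-exposed male 2 (median 0.09), without room air male 4 there were 13, and without hyperoxia-exposed male 1 there were 27 (median -0.07). For 36 of them the 95% interval lay within a 1.5-fold change. The lung-expressed members with the smallest p were *Pcdhgb6* (log2 fold change -0.25 ± 0.17), *Pcdhgc4* (0.24 ± 0.18), *Pcdhgc5* (0.15 ± 0.16) and *Cdh3* (-0.13 ± 0.16), each with an adjusted p of 0.9998 (edgeR). The receptor genes had a median of -0.12 in males, which became 0.08 without hyperoxia-exposed male 1, 0.03 without room air male 1, -0.20 without room air male 4 and -0.30 without hyperoxia-exposed male 2. Of the 20 γ genes tested 10 were lower in males (median 0.0099), and 14 with the receptor share as covariate (median -0.07). Without hyperoxia-exposed male 1 there were 16 (median -0.12), and without hyperoxia-exposed male 2 there were 6 (median 0.16). The log2 fold change of *Cdh5* in males was -0.05 ± 0.31 and that of *Cdh1* -0.07 ± 0.25.

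**Figure D4:**
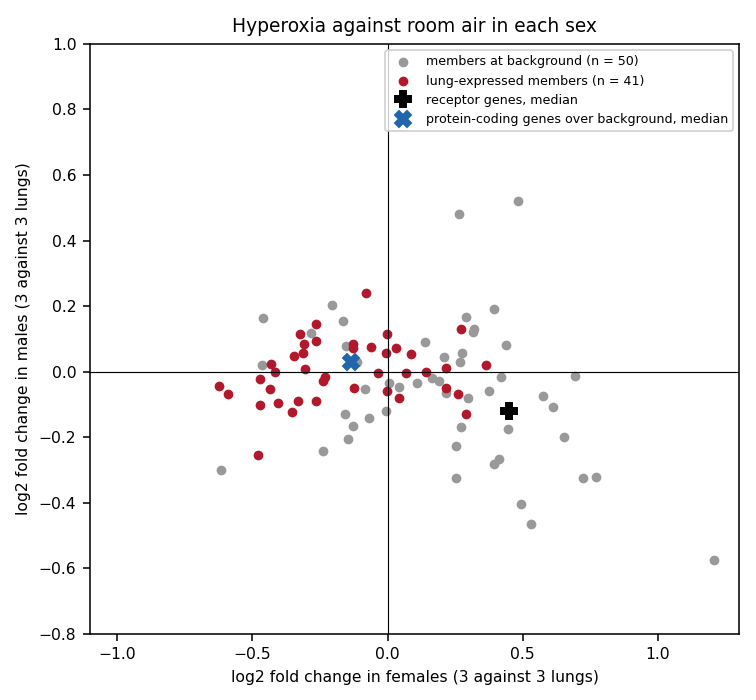
Log2 fold change of hyperoxia against room air in females (horizontal) and males (vertical), 3 against 3 lungs each, for the 41 lung-expressed members (red) and 50 tested members at background (grey). The black plus marks the median of the receptor genes at 0.45 and -0.12, and the blue cross that of all protein-coding genes beyond the background limit at -0.14 and 0.03; red points lie mostly left of 0 and grey points mostly right of it.

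The difference between the sexes in the response was tested as an interaction. It was called for 0 of 91 members and for 0 of all genes (0%), by edgeR and by DESeq2, with a smallest adjusted p of 0.578 among members. At an unadjusted p under 0.05 there were 9 members, 9.89%, against 8.46% of all genes, and all 9 lay at background. The lung-expressed members with the smallest p were *Pcdhga12* (interaction log2 of -0.41 ± 0.21, SE), *Pcdhga8* (-0.58 ± 0.29), *Cdh3* (0.42 ± 0.22) and *Pcdhgc5* (-0.41 ± 0.22). *Cdh3* had 14.97, 14.9 and 13.4 CPM in room air females, 17.3, 18.4 and 17.3 CPM in hyperoxia-exposed females, 17.8, 12.96 and 18.3 CPM in room air males and 12.7, 16.98 and 15.4 CPM in hyperoxia-exposed males. The female groups did not overlap and the male groups did, but the interaction of *Cdh3* did not pass (adjusted p = 0.578). With the covariate the values were -0.22 for *Pcdhga12*, 0.03 for *Pcdhga8*, 0.27 for *Cdh3* and -0.14 for *Pcdhgc5*. RUVr with 1 factor called 7 members, all at background, among 4.58% of all genes. Some lung-expressed members of high level had an adjusted p below 0.05 under RUVr (edgeR), but too small a fold for a call. These were *Cdh1* (-0.46, adjusted p = 0.00167), *Cdh5* (-0.35, 0.0192), *Pcdhgc3* (-0.39, 0.0197), *Cdh11* (-0.31, 0.0394) and *Pcdh1* (-0.43, 0.0401). With the covariate in place of RUVr their values were positive, from 0.13 to 0.30.

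Between females and males over both exposures, 2 members were called, *Pcdh19* and *Pcdh11x*, against 1.22% of all genes tested. Both were higher in females, and they are the only 2 members on chromosome X. *Pcdh19*, a protocadherin of brain known from an X-linked epilepsy (ENSMUSG00000051323, chromosome X from 133582860 to 133688987), had 18.8, 22.8 and 24.7 CPM as the lowest, median and highest of 6 female lungs and 12.96, 13.6 and 15.4 CPM in 6 male lungs. These groups did not overlap. Its log2 fold change was 0.69 ± 0.10 (SE, edgeR adjusted p = 6.15e-05). *Pcdh11x*, of brain too (ENSMUSG00000034755, from 120290259 to 120910619), had 14.7 ± 2.98 CPM in females and 8.40 ± 2.20 CPM in males (SD, n = 6 each), groups that overlapped, with a log2 fold change of 0.79 ± 0.14 (adjusted p = 0.00128).

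Neither gene was lung-expressed, at 1.56 and 0.699 times the expected background. Of the X-linked genes tested 25.3% were called, and of the autosomal genes 0.0228%. Of the X-linked protein-coding genes at background 184 of 391 were called (median log2 fold change 0.82), and of those beyond the limit 95 of 436 (median 0.42). The 8 X-linked receptor genes with at least 100 counts had a median log2 fold change of 0.95, and 5 of them were called. Their counts per kilobase were 1.23 ± 0.0886 times those of other receptor genes in females and 0.600 ± 0.0600 times in males (SD, n = 6 each). Relative to the X-linked receptor genes of the same lung, *Pcdh19* stood at 1.61 ± 0.500 in females and 1.83 ± 0.516 in males, and *Pcdh11x* at 0.766 ± 0.119 and 0.808 ± 0.170. On that scale the mean of both genes was lower in females than in males, by less than the SD.

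**Figure D5:**
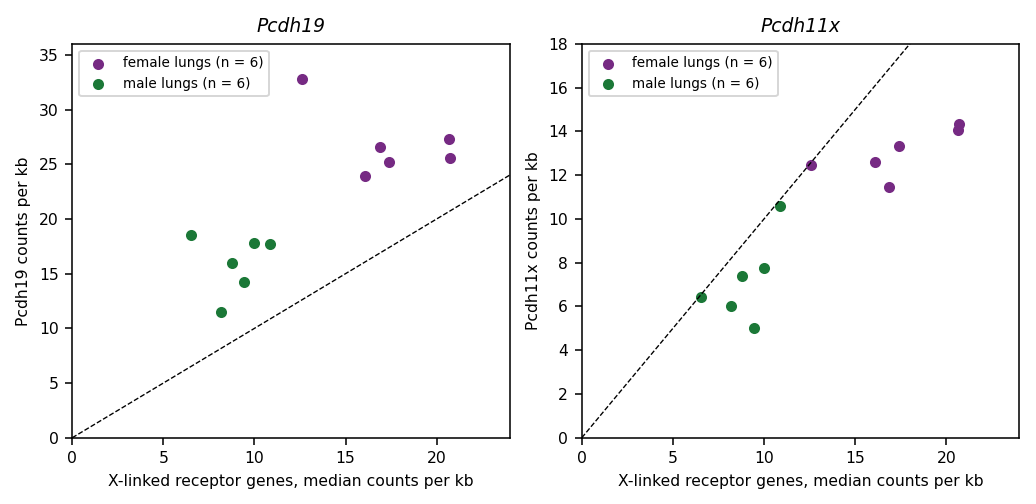
Counts per kilobase of *Pcdh19* and *Pcdh11x* (vertical axes, different ranges) against the median counts per kilobase of the X-linked receptor genes (horizontal) in each of the 6 female and 6 male lungs; the dashed line marks equal values. Female lungs lie to the upper right of male lungs along the direction of the line in both panels, *Pcdh19* above the line and *Pcdh11x* near or below it.

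No lung-expressed member was called between the sexes. The smallest adjusted p among them was 0.784, for *Pcdhgc5* (log2 fold change -0.21 ± 0.11), followed by *Pcdhb20* (-0.24 ± 0.13), *Pcdhb2* (-0.25 ± 0.14) and *Pcdhb9* (0.17 ± 0.12). *Cdh5* differed by a log2 of 0.07 ± 0.22 and *Cdh1* by 0.16 ± 0.18, females against males.

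The genes that work with cadherins were read from 3 lists. Of 22 catenins and adherens junction partners, 10 factors of cadherin transcription and shedding, and 27 other genes of the cadherin superfamily, 0 were called in any of the 5 comparisons. After hyperoxia over both sexes 15 of the 22 junction partners were lower, with a median log2 fold change of -0.10, and 10 of 22 were lower with the covariate. The 4 genes of smallest p were *Fat3*, a giant protocadherin (91.2 ± 7.41 CPM after hyperoxia and 114 ± 21.6 CPM in room air, log2 fold change -0.32 ± 0.15), *Cdhr3*, of ciliated cells (-0.20 ± 0.12), *Vcl*, the vinculin of actin anchorage (-0.30 ± 0.17) and *Clstn3*, a calsyntenin (0.18 ± 0.11), each with an adjusted p of 0.927 (edgeR, n = 6 lungs each). All 10 transcription and shedding factors were lower (median -0.12), with none past the test and 6 lower with the covariate.

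Cell type markers beside these values moved as follows. After hyperoxia over both sexes, 11 of 12 endothelial markers were lower (median log2 fold change -0.18), 12 of 12 epithelial (-0.21), 7 of 12 mesenchymal (-0.12), 4 of 6 mesothelial (-0.19), 7 of 10 immune (-0.10), 7 of 8 cardiac muscle (-0.50) and 9 of 10 skeletal muscle markers (-0.77), and 0 of them were called. The skeletal muscle value rested on room air male 1: without that lung 4 of 10 were lower and the median was 0.01. In females the endothelial markers had a median of -0.41 and the epithelial markers of -0.47, and in males of 0.08 and 0.07. Summed endothelial markers ran from 2458 to 3569 CPM in room air females, 2049 to 2698 in hyperoxia-exposed females, 1827 to 2881 in room air males and 1585 to 3226 in hyperoxia-exposed males. Epithelial markers ran from 10443 to 20136, 9410 to 10269, 8949 to 13298 and 7340 to 13410 CPM in the same order. The part of cell types and of the background reads in the values of the members was not tested.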

How the data were processed

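Whole lungs of 12 *miR-30a*-/- mice were analysed in 4 groups of sex and exposure, taken from the sample titles. The authors used Trim Galore for trimming, STAR with the mm10 genome for alignment and featureCounts for counting. They then applied batch normalization with ComBat-seq, RUVr and upper-quartile normalization, and tested with edgeR. The deposited values are whole-number counts per gene and are not normalized; versions are not given in the sources used here. The table was used whole (55487 genes, of which 55227 matched GENCODE M21 by ID).

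Counts were tested in R 4.3.3 with edgeR 4.0.16, on 45828 genes kept by filterByExpr. Library sizes were scaled by upper quartile, and the quasi-likelihood model was robust and had 1 mean per group. A call needed a p below 0.05 after Benjamini-Hochberg adjustment over all genes tested, with a fold over 1.5. CPM used the normalized library sizes. A floor of 3 counts lay at 0.179 to 0.342 CPM, and such limits cover counting error only. p-values measure the spread between these animals. Tables and figures were made in Python 3.11.15. Alternatives were DESeq2 1.42.0, TMM, RUVr, other filters and background limits, background subtraction, the log2 receptor share as covariate, a replicate block and each lung left out. RUVr was part of the authors' own testing. Their number of factors is not given, so it was run with 1 factor, as an alternative. In females it called 1903 of all genes, against 1 without it. On simulated data with 44914 genes 89 of 100 genes changed 2-fold over 12 lungs and 99 of 100 changed 3-fold were recovered, with 13 false calls. The changed genes were drawn only from those above a minimum mean count, and no shift common to many genes of a lung was simulated. Recovery of the members in these lungs can thus be lower. The comparisons within 1 sex and the interaction were not simulated.

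Named genes were all members called, the 12 of highest level, 6 of smallest p for exposure, 4 for each other comparison and 2 on either side of the background limit and, of the partner lists, the 4 of smallest p for exposure, lung-expressed members alone being ranked. The members, lists and this rule were chosen with earlier results of these data known. Genes named outside the rule (*Cdh13*, *Cdh17*, *Cdh26*, *Cdh7*, *Cdh10*, *Cdh19*, *Pcdhga10*, *Pcdhga11*) were chosen after their values were seen. The result of the Schwann cell and neural marker list is not reported here.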

Additional observations from a re-analysis of the deposited data

How the results depend on the processing

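The count of members called stayed at 0 for hyperoxia against room air over all 12 lungs and in males under all alternatives run, and at 0 in females and for the interaction except as follows. RUVr with 1 factor called 7 members in females and 7 for the interaction, among 1903 and 2101 genes. The animal numbers did not pair the lungs: deviations of same-numbered lungs correlated at -0.30, 0.06 and -0.17, and the numbers mark different animals. With the replicate block, 2 members were called in females (451 genes) and 0 over both sexes. Between females and males 2 members were called, and 1 with background subtracted, where *Pcdh19* had a log2 fold change of 3.35 and *Pcdh11x* was not tested. With each lung left out in turn, 0 members were called in each case for the exposure comparisons and the interaction, and 2 between the sexes, although all genes called ran from 3 to 37 over both sexes and from 0 to 206 in females. The 41 lung-expressed members became 59, 18 and 47 at limits of 1.5 and 3 times background and the 95th percentile of receptor genes, and 49 on exon bases shared with no other gene, a choice made after seeing the data. Each member named by the rule was followed in the comparison that named it, 39 log2 fold changes and 773 values under alternatives. Of these 757 kept their direction and side of the threshold, 1 passed (*Pcdhga8* in females under RUVr, -0.60) and 15 changed sign, none of them past the test. With the receptor share as covariate the interaction of *Pcdhga8*, -0.58, became 0.026, and over both sexes *Pcdh18* became 0.10, *Cdh11* 0.033 and *Pcdh17* 0.044. Over both sexes *Cdh24*, -0.02, became 0.0069 with at least 10 counts in every library, 0.089 with the replicate block and ran from -0.079 to 0.026 with each lung left out, changing sign without 4 of them. *Pcdhb5*, -0.07, became 0.0070 with the block and ran from -0.15 to 0.042 with each lung left out, and *Pcdh18*, -0.08, ran from -0.23 to 0.039, each changing sign without 2 lungs. In females *Cdh7*, *Cdh10* and *Cdh19*, at background and outside that rule, passed under RUVr, and *Cdh5* changed sign with the covariate. *Pcdh11x* passed for the interaction under RUVr.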
